A study of Drosophila melanogaster with 75 samples.

Results

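The 10 genes described here encode the precursors of neuropeptides that act in courtship, aggression and feeding in Drosophila: Tk, NPF, sNPF, SIFa, Dsk, Dh44, Pdf, AstA, Mip and Crz. They are taken by gene symbol, with no threshold on a measured value. Of the 10, 7 (NPF, sNPF, SIFa, Dh44, Pdf, Mip and Crz) were read by 1 probe set each, a probe set being the group of short probes that reads a transcript, out of 18769 probe sets for fly transcripts. All 7 passed the filter on dim probe sets, a mean log2 intensity of at least 4 over the arrays, which left 8926 probe sets for testing. Tk, Dsk and AstA had no probe set under their symbol or gene identifier in the annotation used, and were not analysed here.

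The arrays carried head RNA of males aged 5 days from the isogenized Canton-S strain, which serves as a wild type. There were 15 arrays in 3 arms of 5, each with RNA of its own pool of 20 males, and the p-values therefore refer to variation between pools. All males were virgins that had been housed in groups and then singly from day 4. Males of the courtship arm met a cauterized virgin female for 20 min. The arm titled male carries the same treatment label as the courtship arm, but its title, source name and sample code set it apart, and the labels do not settle what those males met. Males of the control arm met no female, and the design text calls them mock-exposed. The labels of each of the 3 arms, control too, also say that robustly courting males were collected.

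Neuropeptides are cut from precursor proteins, packed in dense-core vesicles and released from small groups of neurons or neurosecretory cells, often as hormones. Most act through G-protein-coupled receptors on cells that may lie far from the source, and a peptide can be released without an immediate change of its transcript. In the fly head, neuropeptide F (NPF) and short neuropeptide F (sNPF) promote feeding, and NPF also responds to the mating history of males. SIFamide comes from a few cells of the pars intercerebralis, and males without it court indiscriminately. Tachykinin promotes aggression between males, and drosulfakinin, related to cholecystokinin, acts in satiety and aggression, as allatostatin A does in satiety and sleep.

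In courting males the precursor transcripts other than Dh44 lay close to their level in control males. The differences of these 6 ran from -0.12 to 0.04 on the log2 scale, and their 95% intervals allowed no more than a 1.38-fold difference in either direction. Dh44 stood at -0.30, with an interval that reached 1.75-fold lower. limma passed 0 of the 7 at an adjusted p of 0.05 and 0 at an unadjusted p under 0.05. Of all probe sets tested, 0% passed at the adjusted and 2.86% at the unadjusted threshold, 1.22% on the lower side. By sign alone 2 of the 7 were higher and 5 lower in courting males, where 45.6% of all probe sets were lower. The median difference of the 7 was -0.05 and their median size 0.05, against 0.01 and 0.08 over all probe sets tested.

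Against the control arm, the male arm also had 0 of the 7 past the adjusted threshold, where 3.66% of all probe sets passed (194 higher and 133 lower). At an unadjusted p under 0.05 there was 1, Dh44, which was lower. The background at that threshold was 34.1% in either direction and 15.6% on the lower side, so that a count of 1 in 7 is near the background. By sign, 3 of the 7 were higher and 4 lower, and 47.1% of all probe sets were lower. The median difference was -0.10 and the median size 0.10, against 0.02 and 0.18 over all probe sets tested.

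Between courting males and the male arm 0 of the 7 passed the adjusted threshold and 0 the unadjusted one. Over all probe sets 0% passed the adjusted and 15.2% the unadjusted threshold, 7.21% on the lower side. Of the 7, 4 were higher and 3 lower in courting males, where 51.9% of all probe sets were lower. The median difference was 0.02 and the median size 0.06, against -0.01 and 0.13 over all probe sets tested. The comparisons share arms, so their results are not independent of each other.

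**Figure D1:**
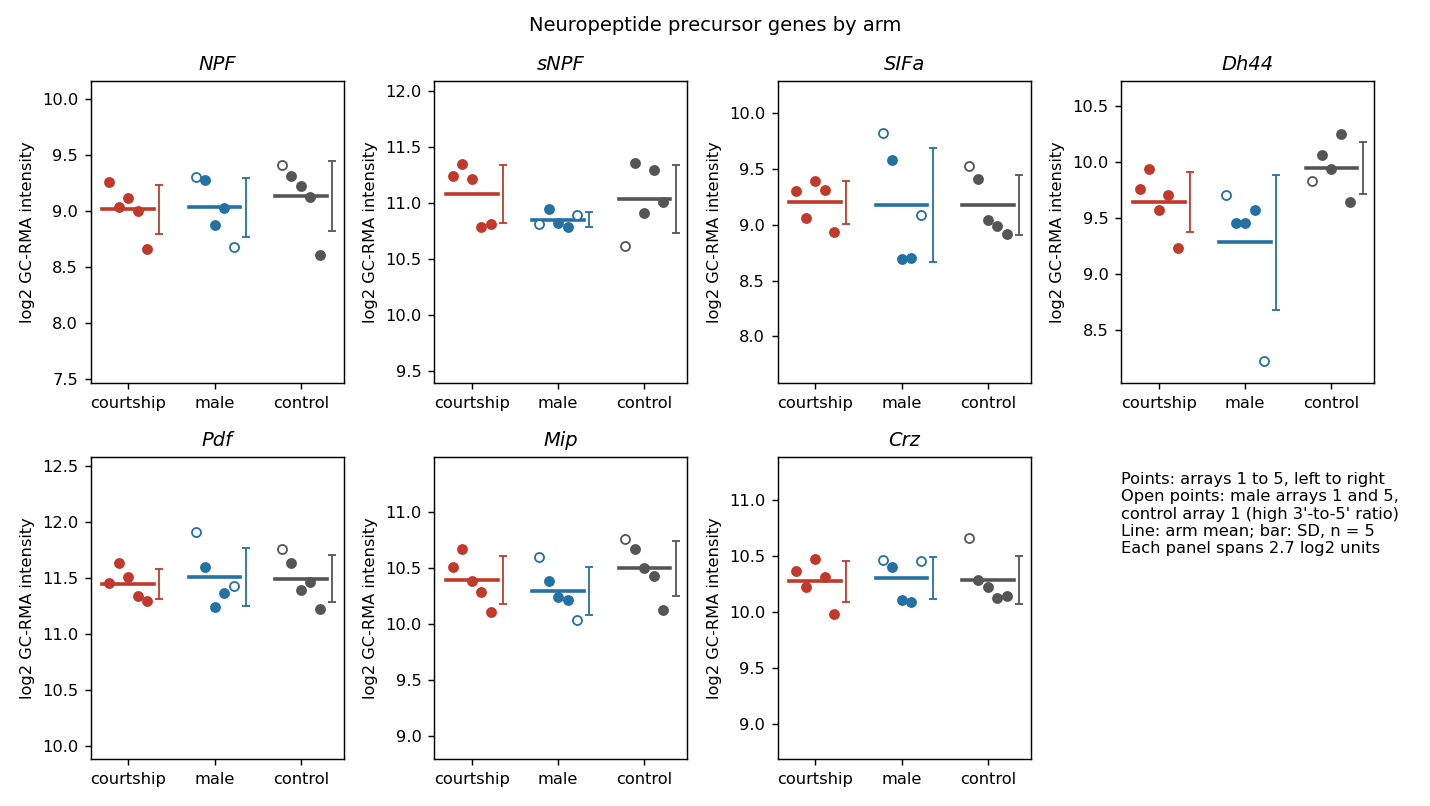
Log2 GC-RMA intensity of the 7 neuropeptide precursor genes on each of the 15 arrays, by arm (points run from array 1 to array 5, lines are arm means and bars the SD, n = 5, and every panel spans the same number of log2 units). Dh44 has 4 of 5 male-arm points below all control points, and male array 5 lies far below the rest at 8.22.

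RNA of 3 pools differed from the other 12 in a measure of quality. The mean log2 ratio of 3' to 5' signal over 5 pairs of control probe sets, which rises as RNA breaks down, reached 3.99 (male array 1), 3.26 (male array 5) and 3.54 (control array 1), while the other 12 had 2.50 to 2.90. Markers of the tissue were those of a head. Photoreceptor markers had a mean log2 of 14.64, 14.47 and 14.71 in the courtship, male and control arms, 5 of 5 probe sets of the male reproductive tract were below the filter, and so were 3 of 3 of the thoracic gene Antp and 5 of 6 of the midgut list, all but Mal-A1. Markers of other head tissues were detected in part or whole. Past the filter were 5 of 5 probe sets of the glia list, 6 of 6 of muscle, 4 of 6 of fat body (not Fbp1 and Yp1) and 3 of 6 of haemocytes (not He, NimC1 and 1 of Pxn).

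Dh44 encodes diuretic hormone 44, a relative of corticotropin-releasing factor made by neurosecretory cells of the pars intercerebralis. It acts in water balance, nutrient sensing and the output of the circadian clock. Its probe set read 9.76, 9.94, 9.57, 9.71 and 9.23 on courtship arrays 1 to 5 (mean 9.64, SD 0.26). In the male arm it read 9.71, 9.46, 9.45, 9.57 and 8.22 (mean 9.28, SD 0.60), and on control arrays 9.83, 10.07, 9.94, 10.25 and 9.64 (mean 9.95, SD 0.23). Male arrays 2 to 5 lay below every control array, and male array 1 lay between control arrays 5 and 1, so the arms overlapped by 1 array. In the courtship arm 2 of 5 arrays lay below every control array. For this and the genes below, the share of all probe sets with arms this far apart is not given here.

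Dh44 differed between the male and control arms by -0.67 ± 0.23 (SE), or 1.59-fold lower, with a 95% interval from -1.17 to -0.16. The unadjusted p was 0.0128 and limma's adjusted p 0.0789, which misses the threshold. Courting males stood at -0.30 ± 0.23 relative to controls (interval -0.80 to 0.20, adjusted p = 0.999) and at 0.36 ± 0.23 relative to the male arm (interval -0.14 to 0.86, adjusted p = 0.414). By arm mean the order from low to high was male, courtship, control, and neither pair of neighbours in that order differed beyond the spread. In a bulk sample such as a head, fewer Dh44 cells and less Dh44 RNA per cell cannot be told apart.

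The size of the Dh44 difference rested in part on 1 pool. Without male array 5 it was -0.40 ± 0.14 (adjusted p = 0.120), without male arrays 1 and 5 it was -0.45 ± 0.15 (0.148), and without those and control array 1 it was -0.48 ± 0.16 (0.118). When the 3'-to-5' ratio entered the model it was -0.65 ± 0.24 (0.0811). The 4 other ways in which the authors processed the same arrays gave -0.52 to -0.63. Over 31 alternative settings the difference was negative in 31, with an unadjusted p under 0.05 in 31. Its adjusted p lay between 0.0181 and 0.182. Some settings, such as another filter or a courtship array left out, cannot change the difference, only its p. The 31 are therefore not separate checks of its sign. Dh44 passed the adjusted threshold in 3 of the 31, among them a random block for the code's first letter (0.0483) and array weights (0.0181). Arrays that share a first letter of the sample code, whose meaning the labels do not give, can also be set side by side. For letter A, Dh44 read 9.71 on male array 1 against 9.83 on control array 1. For letter F it read 9.57 on male array 4 against 10.25 on its control partner, and for letter H 8.22 on male array 5 against 9.64. Male arrays 4 and 5 lay below every control array, so the comparisons for F and H could not come out otherwise. Only letter A was open, and both of its arrays are among those of high 3'-to-5' ratio. These values are therefore no separate check of the sign.

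**Figure D2:**
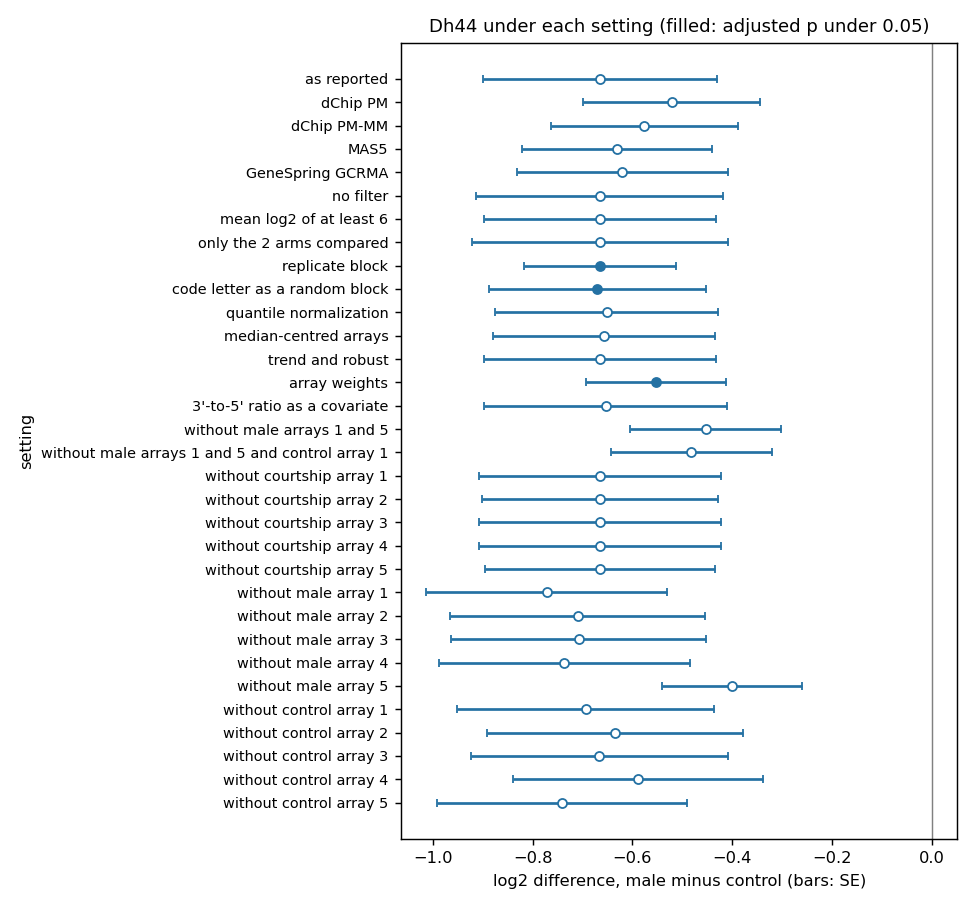
Difference of Dh44 between the male and control arms (log2, male minus control; bars are the SE) as reported and under 31 alternative settings. All points lie left of 0, from -0.77 without male array 1 to -0.40 without male array 5, and the 3 filled points passed an adjusted p of 0.05.

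Mean levels of several marker lists differed between these arms, and no test of a list was run. Of 6 pan-neuronal genes 5 had a probe set, and 6 of their 8 probe sets passed the filter. Their summed intensity was 4330 to 7655 in the male arm and 6725 to 10910 in the control arm, and 6 of the 6 tested were lower in the male arm. Appl, the fly homologue of the amyloid precursor protein gene, fell by 0.61 ± 0.14 (adjusted p = 0.0386), and stood at -0.52 without male arrays 1 and 5. The synaptic vesicle gene nSyb stood at -1.05 ± 0.40 (adjusted p = 0.0911), or -0.33 without those arrays, on which it read 8.51 and 8.67 against 10.31 to 10.54 on the other male arrays. elav and the brighter brp probe set were low on male array 1 alone, and without it they stood at 0.03 and 0.12. para and the dimmer tested brp probe set were read near the filter of 4, with a mean log2 of 4.23 and 4.56 over all arrays. They stood at -0.67 and -0.34, or -0.50 and -0.35 without male arrays 1 and 5. Markers of peptidergic cells, a list whose probe sets past the filter belonged to Phm, amon and Ilp2, had a mean log2 of 11.03 (10.88 to 11.29 over arrays) in the male arm and 11.06 (10.92 to 11.20) in the control arm. Other lists differed too. By mean log2, muscle markers had 7.73 in the male arm and 8.36 in the control arm, photoreceptor markers 14.47 and 14.71, glia 11.24 and 10.96, haemocytes 8.50 and 8.28 and fat body 13.06 and 12.89. On male arrays 2 to 4 neuron markers had 7.40 to 7.65 against 7.56 to 8.21 on control arrays, and muscle markers 7.76 to 8.24 against 8.12 to 8.51. The part of cell content in the Dh44 value was not tested.

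Of the feeding peptides, NPF, the fly relative of vertebrate neuropeptide Y, read 9.26, 9.04, 9.12, 9.01 and 8.67 in courting males (mean 9.02, SD 0.22). On male arrays it read 9.31, 9.28, 8.88, 9.03 and 8.68 (mean 9.03, SD 0.27), and in controls 9.41, 9.32, 9.23, 9.13 and 8.61 (mean 9.14, SD 0.31). Array 5 was the lowest of each arm and the 3 arms covered the same range. The difference from control was -0.12 ± 0.16 (SE) in courting males, with an interval from -0.46 to 0.22, and -0.10 ± 0.16 in the male arm, with an interval from -0.45 to 0.24. Courting males and the male arm differed by -0.02 (interval -0.36 to 0.32).

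sNPF is the short neuropeptide F gene, broadly expressed in the brain and a promoter of feeding and growth. It read 11.24, 11.35, 11.21, 10.79 and 10.82 in courting males (mean 11.08, SD 0.26). Male-arm values were 10.81, 10.95, 10.82, 10.79 and 10.90 (mean 10.85, SD 0.07), and in controls 10.62, 11.36, 10.91, 11.30 and 11.02 (mean 11.04, SD 0.30). Courtship arrays 1, 2 and 3 lay above every male array, and the male arrays spanned the narrowest range of the 3 arms. Courting males stood 0.23 ± 0.14 above the male arm (interval -0.07 to 0.53, adjusted p = 0.399) and 0.04 ± 0.14 above controls (-0.26 to 0.34). The male arm stood at -0.19 ± 0.14 relative to controls (-0.49 to 0.11, adjusted p = 0.353).

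Mip encodes the myoinhibitory peptides, or allatostatin B, which bind the sex peptide receptor SPR and act in satiety and female receptivity. It read 10.51, 10.67, 10.39, 10.29 and 10.11 in courting males (mean 10.39, SD 0.21). The male arm read 10.60, 10.39, 10.25, 10.21 and 10.04 (mean 10.30, SD 0.21), and in controls 10.76, 10.67, 10.50, 10.44 and 10.13 (mean 10.50, SD 0.24). The male arm was below the control median on 4 of 5 arrays, with arms that overlapped. Its difference from control was -0.20 ± 0.14 (interval -0.49 to 0.09, adjusted p = 0.291), and that of courting males was -0.11 ± 0.14 (-0.40 to 0.18). Courting males stood 0.10 ± 0.14 above the male arm (-0.19 to 0.39).

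SIFa, the SIFamide gene, spread most widely in the male arm. It read 9.30, 9.05, 9.39, 9.31 and 8.94 in courting males (mean 9.20, SD 0.19). The male pools read 9.82, 9.58, 8.69, 8.70 and 9.09 (mean 9.17, SD 0.51), and in controls 9.53, 9.40, 9.04, 8.99 and 8.92 (mean 9.17, SD 0.27). Male arrays 1 and 2 lay above every control array and male arrays 3 and 4 below every one, so the male arm enclosed the control arm on both sides. The difference from control was 0.02 ± 0.21 in courting males (interval -0.42 to 0.46) and 0.00 ± 0.21 in the male arm (-0.44 to 0.44). Courting males differed from the male arm by 0.02 ± 0.21.

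Pdf encodes pigment-dispersing factor, the peptide by which a set of clock neurons keeps the circadian network in phase. It read 11.46, 11.63, 11.51, 11.34 and 11.29 in courting males (mean 11.45, SD 0.14). On the male arrays it stood at 11.91, 11.60, 11.24, 11.37 and 11.42 (mean 11.51, SD 0.26), and in controls 11.76, 11.63, 11.39, 11.46 and 11.22 (mean 11.49, SD 0.21). Male array 1 was the only one of the 15 above 11.76, and the courtship arrays lay within the range of the controls. The differences from control were -0.05 ± 0.13 in courting males (interval -0.32 to 0.22) and 0.02 ± 0.13 in the male arm (-0.26 to 0.29). Courting males differed from the male arm by -0.06 ± 0.13 (-0.33 to 0.21).

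Crz encodes corazonin, a relative of gonadotropin-releasing hormone that acts in stress and metabolism, and in the male nerve cord in sperm transfer. It read 10.37, 10.22, 10.47, 10.31 and 9.98 in courting males (mean 10.27, SD 0.18). In the male arm it read 10.46, 10.40, 10.10, 10.08 and 10.46 (mean 10.30, SD 0.19), and in controls 10.66, 10.28, 10.22, 10.12 and 10.14 (mean 10.28, SD 0.22). The 3 arm means lay within 0.03 of each other, with overlapping arms. The differences from control were -0.01 ± 0.12 in courting males (interval -0.27 to 0.25) and 0.02 ± 0.12 in the male arm (-0.24 to 0.28). Courting males differed from the male arm by -0.03 ± 0.12 (-0.29 to 0.23). For these 6 genes the adjusted p was 0.999 in each comparison of courting males with controls and between 0.291 and 0.999 for the male arm against controls. It was between 0.399 and 0.962 for courting males against the male arm.

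**Figure D3:**
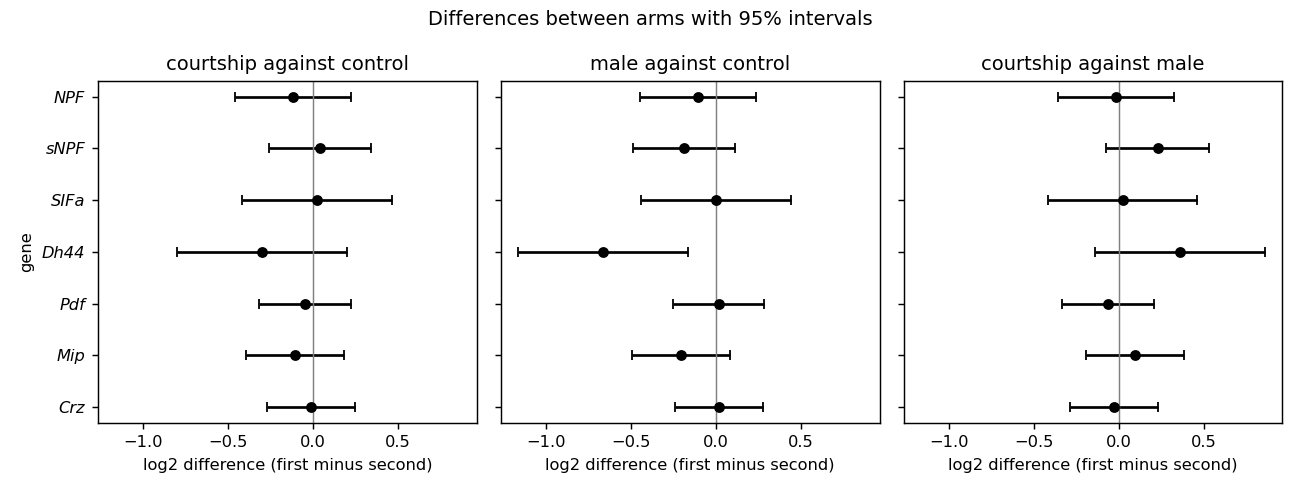
Log2 differences between arms for the 7 neuropeptide genes with their 95% intervals, for each pair of arms (first minus second). The interval of Dh44 in male against control, -1.17 to -0.16, is the only 1 of the 21 that leaves out 0.

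What the intervals still allow differed between genes. For the 6 genes other than Dh44, the male arm could be up to 1.36-fold above or 1.41-fold below the control arm within the 95% intervals, and courting males up to 1.45-fold above or 1.34-fold below the male arm. For Dh44 the interval reached 1.75-fold lower in courting males than in controls and 2.24-fold lower in the male arm than in controls. The sign of the difference between courting males and controls was the same in all 31 alternative settings for NPF, Dh44 and Mip. That between the male arm and controls was the same in all 31 for NPF, sNPF, Dh44 and Mip. Settings that cannot change a difference, such as other filters, are among the 31. For SIFa, Pdf and Crz the sign turned with the setting in each of the 3 comparisons, as it did for sNPF in courtship against control (6 of 31) and for NPF in courtship against male (7 of 31).

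Within arms all 7 had a larger spread than the median probe set, some of them only slightly. The pooled SD within arms was 0.40 for Dh44, 0.35 for SIFa, 0.27 for NPF, 0.24 for sNPF, 0.22 for Mip, 0.21 for Pdf and 0.20 for Crz, against a median of 0.18 over all probe sets tested. For Dh44, 90.4% of probe sets had a smaller spread, for SIFa 87.5%, and for the others 58.4% (Crz) to 77.5% (NPF). Single pools were low or high for several peptides at once. Courtship array 5 was the lowest of its arm for 6 of the 7 (25.0% of all probe sets tested), control array 5 for 5 of the 7 (32.5%) and male array 5 for 3 of the 7, NPF, Dh44 and Mip (31.9%). Male array 1 was the highest of its arm for 6 of the 7, all but sNPF (42.2%), and control array 1 for 5 of the 7 (33.6%). Both of these are arrays with a high 3'-to-5' ratio.

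Deviations from the arm means were correlated between genes across the 15 arrays. Of 21 pairs 18 were positive, and 10 had an adjusted p under 0.05 for Pearson's r in a permutation test within arms, 7 for Spearman's rho (Benjamini-Hochberg over the 21 pairs). NPF and Mip had r = 0.88 and rho = 0.87 (permutation adjusted p = 0.0014 for each), with r = 0.80 without the 2 arrays farthest from the median of NPF and 0.83 without male arrays 1 and 5 and control array 1. Pdf and Mip had r = 0.87 and rho = 0.88 (permutation adjusted p = 0.0014 for each), with 0.81 and 0.87 in the same checks. SIFa and Crz had r = 0.80 and rho = 0.87 (permutation adjusted p = 0.0014 for each), with 0.85 and 0.86, and SIFa and Pdf r = 0.83 and rho = 0.80 (0.00388 and 0.00899), with 0.76 and 0.67. NPF and Dh44 had r = 0.63 but rho = 0.41 (permutation adjusted p = 0.0231 and 0.273), and r was 0.40 without the 2 arrays farthest from the median of NPF and 0.67 without the 3 arrays of high 3'-to-5' ratio. The 6 pairs with sNPF had r between -0.11 and 0.25, and up to 0.78 (with Pdf) without the 3 arrays of high 3'-to-5' ratio. All pairs share pools, arrays and their normalization, and the part of these in the correlations was not tested. The share of other probe set pairs that correlate as strongly is not given here. The counts are therefore not read as particular to these peptides.

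**Figure D4:**
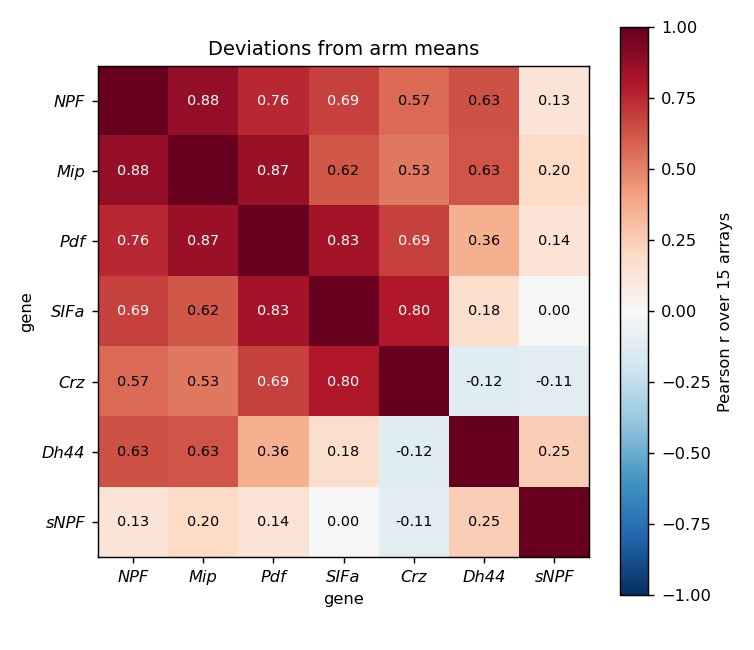
Pearson correlation over 15 arrays of the deviations from arm means for each pair of the 7 neuropeptide genes. NPF, Mip, Pdf, SIFa and Crz form the red block (r = 0.53 to 0.88), and the pairs with sNPF run from -0.11 to 0.25.

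Among 7885 other tested probe sets with a single gene symbol, 1 was named for each peptide as the closest in its deviations over the 15 arrays. It was alpha-Cat for Dh44 (r = 0.98), lov for Mip (0.96), BtbVII for Pdf (0.94), t for sNPF (0.94), TTLL5 for NPF (0.92), Ir68a for Crz (0.92) and CG32554 for SIFa (0.90). Without male arrays 1 and 5 and control array 1 these ran from 0.83 (Ir68a) to 0.95 (lov). A high r follows from taking the closest of so many, and no function is read from it.

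The receptors of these peptides, G-protein-coupled receptors of the receiving cells, were looked at next. Of 14 listed receptor genes 10 had a probe set and 9 could be tested, NPFR, sNPF-R, SIFaR, Dh44-R1, Dh44-R2, Pdfr, SPR, TkR86C and TkR99D. The drosulfakinin receptor gene CCKLR-17D3 was below the filter, and CCKLR-17D1, AstA-R1, AstA-R2 and CrzR were not analysed here. limma passed 0 of 9 at the adjusted threshold in each comparison. At an unadjusted p under 0.05 there were 0 for courtship against control, 1 lower for male against control and 1 higher for courtship against male. By sign 8 of 9 were lower in courting males than in controls (median -0.03) and 8 of 9 lower in the male arm than in controls (median -0.20), while 4 of 9 were lower in courting males than in the male arm (median 0.04). Over all probe sets 45.6%, 47.1% and 51.9% were lower in these comparisons, and 2.86%, 34.1% and 15.2% passed the unadjusted threshold.

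SPR, the receptor of Mip and of sex peptide, was the gene past the unadjusted threshold in both. It read 8.45, 8.76, 8.18, 8.52 and 8.30 in courting males, 8.08, 8.08, 8.43, 8.21 and 7.76 in the male arm, and 8.12, 8.51, 8.44, 8.67 and 8.42 in controls. Male arrays 1, 2 and 5 lay below every control and every courtship array. The difference was -0.32 ± 0.13 for male against control (adjusted p = 0.117 in limma) and 0.33 ± 0.13 for courtship against male (adjusted p = 0.325 in limma). Without male arrays 1 and 5 these were -0.19 and 0.20.

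The receptors of Dh44 came next by p. Dh44-R2 read 7.19, 7.27, 7.07, 7.20 and 6.96 in courting males, 6.34, 7.02, 7.13, 7.10 and 6.31 in the male arm, and 6.73, 7.45, 7.41, 7.46 and 6.81 in controls. Its low values were on male arrays 1 and 5 and control array 1, the 3 with a high 3'-to-5' ratio, and on control array 5. The difference was -0.39 ± 0.19 for male against control (adjusted p = 0.165) and 0.36 ± 0.19 for courtship against male (adjusted p = 0.361), and without male arrays 1 and 5 these were -0.09 and 0.05. Dh44-R1 stood at -0.24 ± 0.12 in courting males against controls (adjusted p = 0.999) and SIFaR, the SIFamide receptor, at -0.15 (adjusted p = 0.999). A second probe set of SPR, of Dh44-R2 and of SIFaR was below the filter.

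Genes that make and release neuropeptides did not pass either. Of 18 listed genes of precursor processing and dense-core vesicles 12 were tested with 15 probe sets, and limma passed 0 in each comparison. At an unadjusted p under 0.05 there was 1 lower in the male arm than in controls. There were 2 higher in courting males than in the male arm, and 0 in courting males against controls. Of all probe sets 34.1%, 15.2% and 2.86% passed that threshold in these comparisons, in either direction. amon, the prohormone convertase that cuts most precursors, differed by 0.00 between courting males and controls and by -0.12 ± 0.11 between the male arm and controls, or -0.19 without male array 1. Cadps, which readies dense-core vesicles for release, read 6.08, 8.05, 8.79, 8.59 and 6.59 in the male arm against 7.54, 8.84, 9.17, 9.44 and 8.95 in controls on 1 probe set. That is a difference of -1.17 ± 0.49 (adjusted p = 0.113), or -0.31 without male arrays 1 and 5, and the other Cadps probe set differed by -0.08. svr, a carboxypeptidase that trims the cut peptides, was read near the filter of 4, with a mean log2 of 4.47 over all arrays and 4.42 to 4.48 in controls. It stood at 0.21 ± 0.14 in courting males against controls, or 0.10 without courtship array 2. Relative to the male arm, courting males stood at 0.36 ± 0.14 in svr (adjusted p = 0.325 in limma), or 0.19 without male arrays 1 and 5. For courtship against male, the same Cadps probe set stood at 1.11 ± 0.49 (adjusted p = 0.325), or 0.26 without male arrays 1 and 5. The amidation enzyme gene Pal2 stood at -0.22 in the male arm against controls, or -0.13 without male array 5, and CG4678, a predicted carboxypeptidase gene, at -0.14 in courting males against controls, or -0.07 without control array 2.

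Of 40 other neuropeptide and peptide hormone genes 23 could be tested, and limma passed 0 in each comparison. At an unadjusted p under 0.05 there was 1 higher for courtship against control, 1 higher and 5 lower for male against control and 2 higher for courtship against male. These counts of 1, 6 and 2 in 23 compare with 2.86%, 34.1% and 15.2% of all probe sets, in either direction. On the lower side, the 5 for male against control compare with 15.6%. No test of the list was run, and none of these small counts is read as above the background. CCHa2, a nutrient-responsive hormone gene of the fat body and gut, was the higher one in both comparisons with controls, at 0.26 ± 0.12 in courting males (adjusted p = 0.999) and 0.26 ± 0.12 in the male arm (adjusted p = 0.127), or 0.16 without male array 5. Ilp5, an insulin-like peptide gene, stood at 0.25 in courting males against controls (adjusted p = 0.999), or 0.16 without control array 5. The 5 lower in the male arm, 3 of which are named here after their values were seen, were Dh31, ITP, Ms (myosuppressin), Nplp1 and Proc (proctolin). Ms stood at -0.29, Nplp1 at -0.39 and Proc at -0.94, with adjusted p-values of up to 0.129, none past the threshold. Without male array 5 these were -0.19, -0.25 and -0.58, and without male arrays 1 and 5, on which Proc read 5.29 and 5.09, they were -0.23, -0.29 and -0.06.

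Dh31 and ITP had the smallest p of these in male against control. Dh31, diuretic hormone 31, read 11.34, 11.45, 11.17, 11.05 and 10.87 in courting males, 10.94, 10.74, 11.10, 10.92 and 9.75 in the male arm and 11.03, 11.47, 11.41, 11.50 and 11.12 in controls. ITP, the ion transport peptide gene, read 10.44, 10.70, 10.48, 10.56 and 10.28 in courting males, 10.08, 10.28, 10.36, 10.34 and 9.30 in the male arm and 10.40, 10.44, 10.75, 10.59 and 10.60 in controls. All 5 male arrays of ITP and 4 of 5 of Dh31 lay below every control array. Male array 5 was the lowest in both, as it was in Dh44. At an unadjusted limma p under 0.05, 15.6% of all probe sets were lower in this comparison. The share with arms this far apart is not given here. Against controls the male arm stood at -0.61 ± 0.21 in Dh31 (adjusted p = 0.0751) and at -0.48 ± 0.17 in ITP (adjusted p = 0.0779). Without male array 5 these were -0.38 and -0.29, and without male arrays 1 and 5 they were -0.38 and -0.23. Courting males stood at 0.49 ± 0.21 in Dh31 and 0.42 ± 0.17 in ITP relative to the male arm (adjusted p = 0.325 for each), and without male array 5 these were 0.25 and 0.22. Lk, which encodes the diuretic peptide leucokinin and was looked at after the values of Dh31 were seen, had the highest difference of the list in male against control, at 0.33 ± 0.16 (adjusted p = 0.170).

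**Figure D5:**
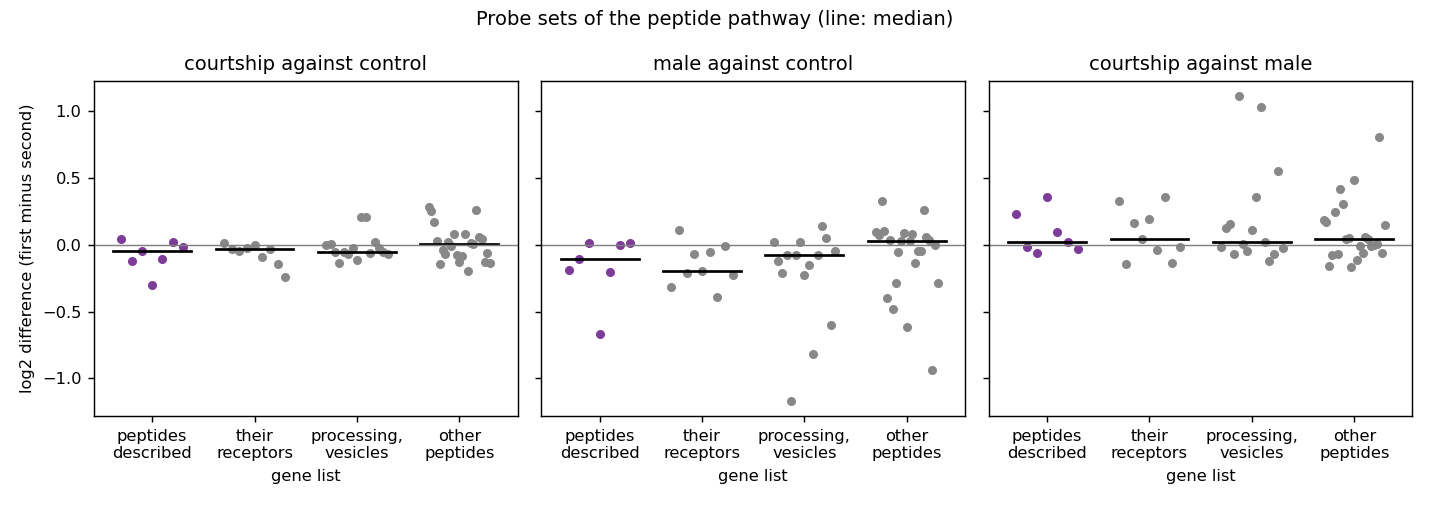
Log2 difference of every tested probe set of the 7 neuropeptide genes, their receptors, the processing and vesicle genes and the other neuropeptides, for each pair of arms (first minus second; lines are list medians). In courtship against control the points lie between -0.30 and 0.28, and in male against control the lowest is Cadps at -1.17.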

How the data were processed

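Heads of males were profiled on 15 Affymetrix Drosophila arrays, and the authors deposited each array in 5 processings (75 columns), named in the labels as dChip PM, dChip PM-MM, MAS5, R GCRMA and GeneSpring GCRMA. By their range, the deposited values are a linear intensity. GCOS 1.2 and GCRMA are named per the submitters' processing notes. For other software versions, and for the scaling of the dChip and MAS5 values, the sources used here give nothing. GC-RMA models background from probe composition and normalizes across arrays, and it compresses the low end of the scale. The number of arrays limits the precision.

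Here log2 was taken of the R GC-RMA values, 183 AFFX control probe sets were left out of 18952, and 8926 of 18769 (47.6%) had a mean log2 of at least 4 and were tested. A limma model (lmFit and eBayes, limma 3.58.1 in R 4.3.3) over the 3 arms, with 12 residual and 2.6 prior degrees of freedom, gave two-sided p-values, adjusted by Benjamini-Hochberg over all tested probe sets within each comparison (threshold 0.05). The model was also run on simulated data of independent normal values. These lack shifts that probe sets share on an array, so that run says nothing about such shifts. Correlations used 100000 permutations within arms. Python 3.11.15, pandas 2.3.3, numpy 2.4.6, scipy 1.17.1 and matplotlib 3.10.9 were used. In the other processings values below 1 were set to 1 (746 in PM-MM, 40 of them at 0, 1382 in MAS5 and 3 in dChip PM). The 3'-to-5' pairs were those of actin, eIF-4a, GAPDH, Act5C and a second GAPDH control. Symbols came from the platform annotation given (13647 probe sets with 1 symbol, 402 with several, 4720 with none), and probe sets with several symbols or none were left unnamed. A current gene table, used for names, changed 0 symbols. No sequence or coordinate was used.

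The genes and lists were chosen with earlier results of these data known. Named are all 10 peptide genes and, per related list and comparison, probe sets past the threshold (at most 4) or, with none, the 2 of smallest p. Marker values, amon, Lk and the second Cadps probe set were added beside results. Alternatives were the other 4 processings, other filters, scalings, variance settings, blocks, array weights, the ratio as a covariate, and arrays left out singly or as the 3 of high ratio.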

Additional observations from a re-analysis of the deposited data

Results flagged for a closer look

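In 4 of the 57 arms examined for the neuropeptide genes and the named genes of the related lists, 1 array lay so far from the other 4 that its gap to the nearest passed Dixon's 95% critical value of 0.71 for 5 samples. Chance alone gives such a gap in about 1 of 20 arms. In 3 of the 4 the array was male array 5. Dh44 read 8.22 there, and 9.45 to 9.71 on the other male arrays. Dh31 read 9.75, and 10.74 to 11.10 on the others. ITP read 9.30, and 10.08 to 10.36 on the others. The remaining one was courtship array 5, on which the amidation enzyme gene Pal2 read 11.99, and 12.34 to 12.42 on the other courtship arrays. Male array 5 had a mean log2 3'-to-5' ratio of 3.26, and the part of RNA quality in these values was not tested.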

How the results depend on the processing

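No neuropeptide gene passed in courtship against control or courtship against male under any of the 31 alternatives run. For male against control the number past the adjusted threshold was 0 as reported, 2 with a replicate block (Dh44 and Mip, with adjusted p = 0.0239 and 0.0449), 1 with the code letter as a random block (Dh44) and 1 with array weights (Dh44). Among the 9 receptor probe sets it was 0 as reported, 1 with a replicate block (Dh44-R2) and 1 with array weights (Dh44-R1), and among the 15 processing and vesicle probe sets 1 with a replicate block and 1 with the ratio as a covariate (Cadps in both). Among the 23 other neuropeptides it was 4 with a replicate block (Dh31, ITP, Ms and Nplp1), 3 with array weights and 1 with the code letter. Blocking changed no other call among these lists. The numbers are shared by the arms without a stated batch, and correlations of same-numbered deviations ran from -0.29 to 0.47, with 13 of 15 above 0 and 10 over 0.1. A sample's own number was its best match in 8 of 15. The labels state no pairing, and several numbers join arrays of different code letters, such as H in the courtship arm with F in the other arms. The replicate block therefore joins arrays of different letters. Male and control array 1, with a correlation of 0.33, both have a high 3'-to-5' ratio. Whether arrays of the same number belong together was not tested, and the arms were not paired in the reported values. Over all 8926 probe sets, male against control gave 327 calls as reported, 0 to 1873 over 16 other settings and 0 to 1027 with 1 array left out. Courtship against control gave 0 as reported, at most 12 over the other settings (array weights) and at most 4 with 1 array left out (courtship array 2), and courtship against male at most 3 and 2. The 5 arrays per arm and the spread of the pools limit what can be detected, and a p that misses the threshold does not show that levels were equal. The cause of these shifts was not tested.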
